A study of Mus musculus with 9 samples.

Results

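A set of 9 genes that neuroblastoma biology ties to the oncogene Mycn was followed in the RNA of N2A cells: Mycn itself, its paralog Myc, its genome neighbour Nbas, the receptor gene Alk and the transcription factor genes Phox2a, Hand2, Gata2, Gata3 and Isl1. They were chosen by name, which gave 9 of the 24318 genes in each deposited table. N2A is an established mouse neuroblastoma line. It was transfected with scramble siRNA (labelled WT), with siRNA against EXOSC3 (labelled EXOSC3 knockdown) or with siRNA against DDX1 (labelled DDX1 knockdown), with 3 biological replicates of each, and all 9 samples carry the treatment label Untreated. EXOSC3 is a subunit of the RNA exosome, the complex that processes and degrades RNA, and DDX1 is a putative RNA helicase. Ribosomal RNA was removed before sequencing, the libraries did not mark strand, and levels are FPKM, the fragments per length of transcript and depth of library that the authors deposited.

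MYCN and MYC are closely related transcription factors that pair with MAX on DNA and drive genes of ribosome production, metabolism and division. MYCN is amplified in high-risk human neuroblastoma, and DDX1 and NBAS lie beside it in the genome, so that they are often amplified with it. ALK, a receptor tyrosine kinase, is the gene most often mutated in familial neuroblastoma. PHOX2A, HAND2, GATA2, GATA3 and ISL1 belong to the sympathetic, or adrenergic, set of factors that regulate one another and keep these tumor cells in a neuronal lineage.

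Transcripts of 4 of the 9 genes rose after EXOSC3 depletion: Mycn (2.05-fold), Isl1 (1.72-fold), Alk (1.71-fold) and Phox2a (1.51-fold). Following DDX1 depletion, 2 of the 9 rose, Alk (1.93-fold) and Myc (1.40-fold). None of the 9 fell past the threshold in either knockdown. A change was called at an adjusted p-value under 0.05 (limma on log2(FPKM + 1), Benjamini-Hochberg over every gene tested in a table), and all 9 genes passed the filter of a mean FPKM of at least 1 in both tables. Among all 11242 genes tested in siEXOSC3, 16.7% were called increased and 15.7% decreased. Among the 11104 tested in siDDX1, 5.61% were called increased and 5.03% decreased. The median log2 fold change of the 9 genes was 0.277 in siEXOSC3 and -0.02 in siDDX1, beside -0.014 and -0.001 over all genes tested. Both knockdowns were compared with the same 3 scramble libraries, so their values are set side by side and not correlated, and the knockdowns were not tested against each other because the tables were scaled separately. In bulk RNA, fewer cells of a type and less RNA per cell cannot be told apart.

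**Figure D1:**
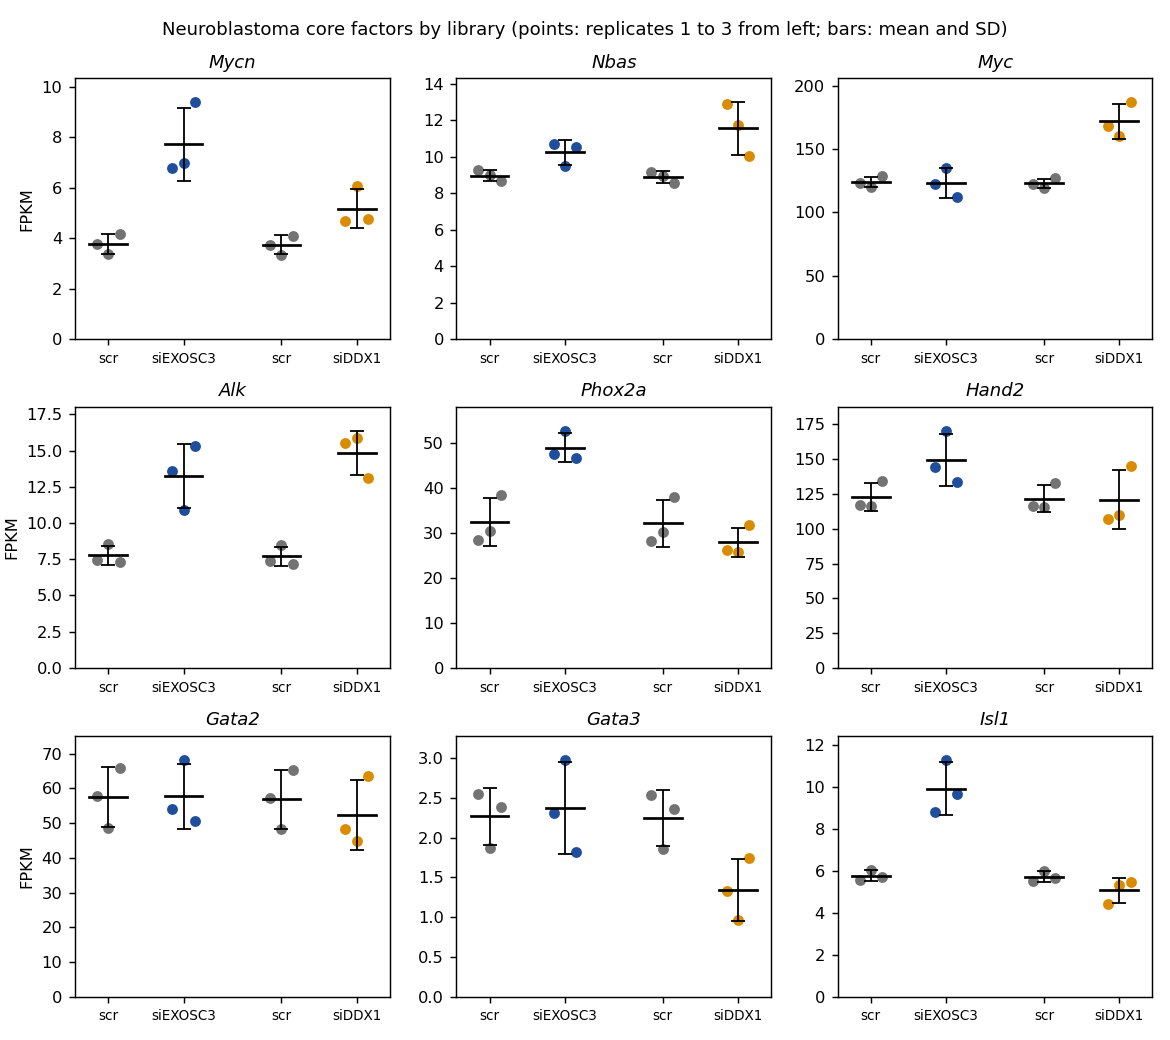
FPKM of the 9 genes (vertical axes, linear from 0) in each library, with scramble (scr) and knockdown side by side for the siEXOSC3 table and the siDDX1 table. Points are replicates 1 to 3 and bars the mean and SD (n = 3). Mycn, Nbas, Alk, Phox2a and Isl1 lay above scramble in all 3 siEXOSC3 libraries, and Mycn, Nbas, Myc and Alk did in all 3 siDDX1 libraries.

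The siRNA targets and the labelled cell type were checked first. Exosc3 fell from 44.1 ± 1.56 to 6.84 ± 0.836 FPKM in siEXOSC3 (SD, n = 3), and Ddx1 fell from 125 ± 5.40 to 30.5 ± 3.73 FPKM in siDDX1. The knockdown libraries differed in what was left: replicate 2 of siEXOSC3 held 7.68 FPKM of Exosc3 and replicate 3 held 6.01, whereas replicate 3 of siDDX1 held 34.8 FPKM of Ddx1 and the other two 28.1 and 28.7. Pearson correlations between replicates lay between 0.983 and 0.997 in every group. The neuroendocrine marker Insm1 was present (6.89 ± 1.36 FPKM in scramble), whereas Th, the first enzyme of catecholamine synthesis, was at 0.143 to 0.223 FPKM. Of 13 markers of immune, endothelial, fibroblast and Schwann cells, 1 passed the filter, Pecam1. Their summed FPKM was 6.56 to 7.48 in scramble and 8.28 to 12.2 in siEXOSC3, and 6.51 to 7.42 against 7.78 to 9.04 in the siDDX1 table, with Col1a2 listed at 0 throughout. A listed 0 in FPKM can be a failed estimate, since genes that many cells use, such as Klf13, are also at 0 here. Pecam1, an endothelial adhesion molecule, made up most of the sum and rose in siEXOSC3 from 4.13 ± 0.343 to 7.28 ± 1.58 FPKM (adjusted p = 0.00827). In siDDX1 it was at 5.25 ± 0.326 FPKM against 4.09 ± 0.332 (adjusted p = 0.0687). Cdh5, the other endothelial marker of the list, was at 0.0124 to 0.0403 FPKM in scramble and 0 to 0.0378 in siEXOSC3. The part of these markers in the results was not tested.

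In scramble, the 9 genes spanned from Myc to Gata3 on the FPKM scale, which is per length and allows levels of different genes to be compared. Myc (124 ± 4.14 FPKM) and Hand2 (123 ± 10.0 FPKM) came first, with ranges that overlapped, and each stood higher than 93.9% of the genes tested. Gata2 (57.5 ± 8.68 FPKM) and Phox2a (32.5 ± 5.31 FPKM) followed. The rest were low: Nbas at 8.98 ± 0.308, Alk at 7.76 ± 0.678, Isl1 at 5.79 ± 0.248, Mycn at 3.77 ± 0.387 and Gata3 at 2.27 ± 0.356 FPKM. Apart from Myc and Hand2, the ranges of neighbours in this order did not overlap. N2A cells thus held far more Myc than Mycn transcript, and the Mycn level exceeded that of 17.5% of the genes tested.

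Mycn, the oncogene at the head of this set, occupies chr12:12942902-12948720 on the reverse strand of mm9, and no other annotated gene overlaps it. Its promoter, from 250 bases before to 50 after the start site in the RefSeq table, is at chr12:12941787-12942086 of GRCm38.p6, reverse strand. It is shown because Mycn carries the largest increase of the set in siEXOSC3, and because it holds a repeated motif, with capitals marking TTTGGCGC, a letter string bound by E2F factors.
Mycn promoter: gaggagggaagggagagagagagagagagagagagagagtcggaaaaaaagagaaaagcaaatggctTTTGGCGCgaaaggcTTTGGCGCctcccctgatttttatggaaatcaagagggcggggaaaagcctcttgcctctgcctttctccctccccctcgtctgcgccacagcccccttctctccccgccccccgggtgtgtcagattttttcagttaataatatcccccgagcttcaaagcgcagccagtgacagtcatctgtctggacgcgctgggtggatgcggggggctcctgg
The string begins at -183 and at -168, counted in bases from the start site. It was searched after the sequence had been seen, on both strands, and 0.51% of the 32851 promoters in the table held it. The MYC E-box CACGTG, also searched on both strands, was in 7.15% of all promoters and in none of the 9 promoters that the table holds for 8 of the set's genes. A match of letters is a description and does not show that a factor binds there.

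Mycn FPKM were 3.78, 3.38 and 4.15 in scramble replicates 1 to 3 and 6.77, 7.0 and 9.40 in siEXOSC3. All 3 siEXOSC3 libraries lay above all 3 scramble libraries, with replicate 3 the highest. The log2 fold change on the log2(FPKM + 1) scale, which understates the change of low genes, was 0.86 (SE 0.127, 95% interval 0.57 to 1.15, adjusted p = 0.00299). In the siDDX1 table, Mycn was at 3.75, 3.35 and 4.10 FPKM in scramble and 4.68, 6.07 and 4.76 in siDDX1. The groups again did not overlap, but the log2 fold change of 0.38 (SE 0.113, interval 0.12 to 0.64) missed the threshold, with an adjusted p of 0.0679. Leaving out siDDX1 replicate 3 brought it to 0.0224, and leaving out any of the other libraries to between 0.101 and 0.191. An exact permutation test of 3 libraries against 3 cannot give less than p = 0.1, the value of each non-overlapping gene here.

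Myc, the broadly expressed paralog, occupies chr15:61816946-61821929 on the forward strand of mm9. It was at 123, 120 and 128 FPKM in scramble and 122, 135 and 112 FPKM in siEXOSC3. Of the siEXOSC3 libraries, 1 was above, 1 within and 1 below the scramble range, and the log2 fold change was -0.01 (interval -0.20 to 0.17, adjusted p = 0.905). In siDDX1 it was at 168, 160 and 187 FPKM against 122, 119 and 127. All 3 siDDX1 libraries were above scramble, and Myc rose by a log2 fold change of 0.48 (SE 0.0716, interval 0.31 to 0.64, adjusted p = 0.00899). Without scramble replicate 1 the adjusted p was 0.0584. Mycl, the third paralog, was at 0.956 ± 0.0809 FPKM in scramble and 0.975 ± 0.191 in siEXOSC3, under the filter for a test. The siDDX1 libraries held 1.97, 1.12 and 1.58 FPKM against 0.921, 0.885 and 1.03, all above scramble, with a log2 difference of 0.38 that missed the threshold (interval 0.07 to 0.70, adjusted p = 0.108).

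To set Mycn beside its paralogs within each library, the share of Mycn in the summed FPKM of Mycn, Myc and Mycl was computed. The share was 2.95, 2.71 and 3.11% in the scramble libraries and 5.19, 4.90 and 7.70% in siEXOSC3, so that all siEXOSC3 libraries were above scramble. The difference was 3.0 percentage points (two-sided exact permutation test, p = 0.1, n = 3 per group, the smallest this design allows). In siDDX1 the share was 2.68, 3.63 and 2.46%, values on either side of the scramble range, and the difference of -0.0011 points was far within the spread between libraries (exact p = 1.0, n = 3).

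Nbas encodes a protein of Golgi-to-endoplasmic-reticulum transport that also takes part in nonsense-mediated decay of mRNA. It lies 327213 bases from Mycn, at chr12:13275933-13590616 on the forward strand of mm9, with Ddx1 between them, 277394 bases from Mycn on the reverse strand. Of 14 annotated genes within 1 Mb of Mycn, 3 were in the tables and only Ddx1 and Nbas had a mean FPKM of at least 1. Nbas was at 9.27, 9.01 and 8.66 FPKM in scramble and 10.7, 9.48 and 10.6 FPKM in siEXOSC3. All siEXOSC3 libraries were higher, by a log2 difference of 0.17 (interval -0.00 to 0.35, adjusted p = 0.114). In siDDX1, Nbas was at 12.9, 11.8 and 10.0 FPKM against 9.20, 8.94 and 8.56. These libraries were also all higher, with a log2 difference of 0.34 (SE 0.0946, interval 0.12 to 0.56, adjusted p = 0.0564). Leaving out 1 library brought Nbas past the threshold on 2 occasions, without siDDX1 replicate 3 (adjusted p = 0.00327) and without siEXOSC3 replicate 2 (adjusted p = 0.0438). Without any other library the adjusted p was 0.129 to 0.176 in siDDX1 and 0.196 to 0.295 in siEXOSC3.

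Ddx1 itself was at 126 ± 5.18 FPKM in scramble and 127 ± 8.14 in siEXOSC3, with a log2 difference of 0.01 (adjusted p = 0.954). In siDDX1 it fell by 2.01 on the log2 scale (adjusted p = 9.53e-05), while the point estimates of both of its neighbours were above 0. Non-overlap between groups was common among all genes: in siEXOSC3, 23.8% of the genes tested lay wholly above scramble and 25.9% wholly below, and in siDDX1 17.0% lay above and 17.8% below. Among the 9 genes, 5 lay wholly above and 0 below in siEXOSC3, and 4 lay above and 2 below in siDDX1.

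**Figure D2:**
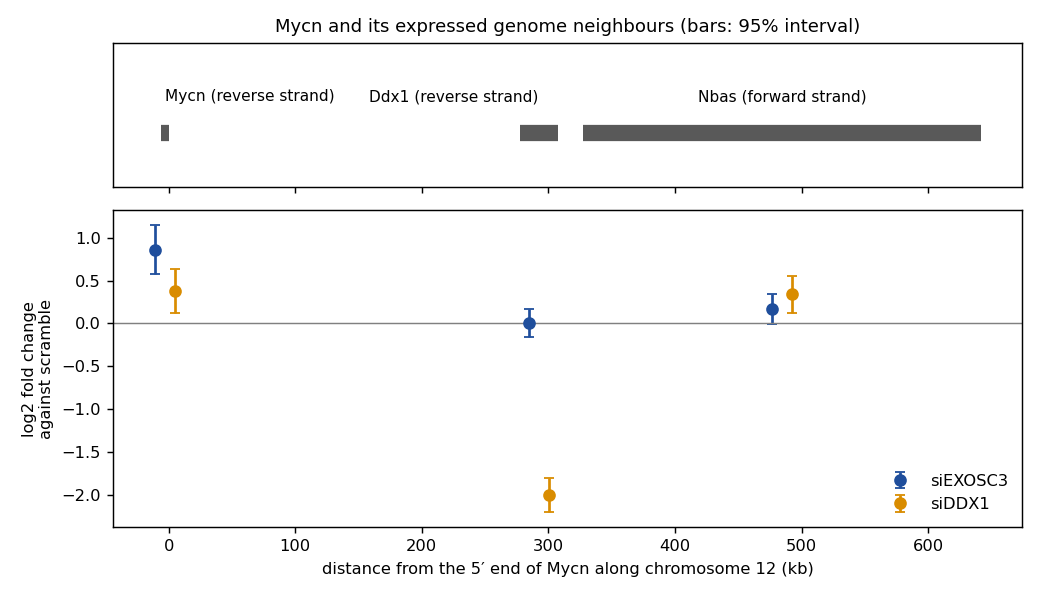
Mycn, Ddx1 and Nbas drawn to scale by distance from the 5′ end of Mycn in kb (top), with their log2 fold changes against scramble on the log2(FPKM + 1) scale and 95% intervals (bottom, n = 3 per group). Ddx1, which lies between Mycn and Nbas in position, stands at -2.01 in siDDX1 and 0.01 in siEXOSC3, below the values of both neighbours, which are all above 0.

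Alk was the gene of the set that was called in both knockdowns. It spans chr17:72218782-72953049 on the reverse strand of mm9 and holds an annotated small U1 RNA gene within it. Its promoter, at chr17:72604258-72604557 of GRCm38.p6 on the reverse strand, is printed for comparison with the others that rose and held none of the motifs searched.
Alk promoter: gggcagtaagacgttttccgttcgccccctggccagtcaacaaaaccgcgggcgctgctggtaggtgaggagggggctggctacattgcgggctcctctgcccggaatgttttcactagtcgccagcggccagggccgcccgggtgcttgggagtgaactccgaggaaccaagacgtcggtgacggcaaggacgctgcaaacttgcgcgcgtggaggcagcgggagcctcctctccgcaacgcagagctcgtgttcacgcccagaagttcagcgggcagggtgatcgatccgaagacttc
Alk was at 7.46, 8.54 and 7.29 FPKM in scramble and 13.6, 10.9 and 15.3 FPKM in siEXOSC3. In siDDX1 it was at 15.5, 15.9 and 13.1 FPKM against 7.40, 8.47 and 7.20. Scramble and knockdown did not overlap in either table, all 6 knockdown values being higher. The log2 fold changes were 0.69 in siEXOSC3 (SE 0.120, interval 0.42 to 0.97, adjusted p = 0.00518) and 0.86 in siDDX1 (SE 0.0959, interval 0.64 to 1.08, adjusted p = 0.00452). Both calls held without any 1 library, with adjusted p up to 0.0282 and 0.0403.

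Phox2a encodes a homeodomain factor needed for noradrenergic neurons. It lies at chr7:108966827-108971680 on the forward strand of mm9 and overlaps Inppl1 on the opposite strand. Its RefSeq promoter is at chr7:101818063-101818362 of GRCm38.p6, forward strand, with capitals marking GATAA, the core letters bound by GATA factors.
Phox2a promoter: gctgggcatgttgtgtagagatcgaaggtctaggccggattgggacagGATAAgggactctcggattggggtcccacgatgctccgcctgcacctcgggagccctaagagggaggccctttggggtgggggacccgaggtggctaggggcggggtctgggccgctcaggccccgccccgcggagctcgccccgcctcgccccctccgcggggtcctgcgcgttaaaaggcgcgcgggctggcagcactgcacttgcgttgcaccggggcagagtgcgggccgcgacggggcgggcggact
The match begins at -202 from the start site. GATAA was found on either strand in 25.41% of all promoters in the table, so a match is common. The Hand2 promoter held 2 matches, 1 on each strand, at -214 and -172. Phox2a was at 28.5, 30.4 and 38.5 FPKM in scramble and 47.7, 52.8 and 46.7 FPKM in siEXOSC3. The groups did not overlap, and Phox2a rose by a log2 fold change of 0.59 (SE 0.111, interval 0.34 to 0.84, adjusted p = 0.00682). In siDDX1 it was at 26.4, 25.9 and 31.8 FPKM against 28.3, 30.2 and 38.1. These groups overlapped, with a log2 difference of -0.19 (interval -0.46 to 0.09, adjusted p = 0.324) that was -0.07 without scramble replicate 3. Without strand, reads of Phox2a and Inppl1 in the shared bases cannot be told apart. Inppl1 fell in both knockdowns, from 18.0 ± 0.803 to 14.8 ± 0.824 FPKM in siEXOSC3 (adjusted p = 0.0258) and from 17.8 ± 0.755 to 12.7 ± 0.715 FPKM in siDDX1 (adjusted p = 0.00948).

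Isl1, a LIM-homeodomain factor of sympathetic and sensory neurons, lies at chr13:117088478-117099896 on the reverse strand of mm9. Its RefSeq promoter, at chr13:116309639-116309938 of GRCm38.p6 on the reverse strand, held GATAA (capitals) at -114 and again at 12, counted in bases from the start site.
Isl1 promoter: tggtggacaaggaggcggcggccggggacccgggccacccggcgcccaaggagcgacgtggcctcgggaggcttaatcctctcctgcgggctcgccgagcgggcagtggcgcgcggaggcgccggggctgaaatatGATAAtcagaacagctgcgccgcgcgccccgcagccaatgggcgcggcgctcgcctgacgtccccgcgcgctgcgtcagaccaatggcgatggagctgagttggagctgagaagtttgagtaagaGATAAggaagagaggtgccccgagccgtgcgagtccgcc
Isl1 was at 5.57, 6.06 and 5.74 FPKM in scramble and 8.81, 11.3 and 9.68 FPKM in siEXOSC3. All siEXOSC3 libraries were above scramble, with replicate 2 the highest, and Isl1 rose by a log2 fold change of 0.68 (SE 0.0973, interval 0.46 to 0.90, adjusted p = 0.00272). In siDDX1 it was at 4.41, 5.34 and 5.49 FPKM against 5.53, 6.01 and 5.67. Here all 3 libraries were below scramble, by a log2 difference of -0.15 that missed the threshold (interval -0.37 to 0.06, adjusted p = 0.313) and was -0.07 without siDDX1 replicate 1.

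Hand2, a bHLH factor of sympathetic neuron development on the forward strand of chromosome 8, was at 117, 117 and 134 FPKM in scramble and 144, 170 and 134 FPKM in siEXOSC3. Replicates 1 and 2 were above scramble, whereas replicate 3 fell within its range. The log2 difference was 0.28 (interval 0.05 to 0.51, adjusted p = 0.0648), and without siEXOSC3 replicate 3 the adjusted p was 0.0223. Without any other library it was 0.0698 to 0.192, with a log2 difference as low as 0.18 without siEXOSC3 replicate 2, and removing the GC and length trends gave 0.16 (adjusted p = 0.221). In siDDX1 Hand2 was at 107, 110 and 145 FPKM against 116, 116 and 133, with replicate 3 above scramble and the others below it. The log2 difference was -0.02 (interval -0.29 to 0.25, adjusted p = 0.929).

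The GATA factors of the sympathetic lineage did not pass the test in either knockdown. Gata2 was at 57.7, 48.7 and 66.0 FPKM in scramble and 54.2, 68.2 and 50.7 FPKM in siEXOSC3, overlapping groups with a log2 difference of 0.01 (interval -0.30 to 0.31, adjusted p = 0.977). In siDDX1 it was at 48.4, 45.0 and 63.7 FPKM, and the log2 difference was -0.12 (interval -0.45 to 0.21, adjusted p = 0.602), which lay between -0.02 without scramble replicate 3 and -0.27 without siDDX1 replicate 3. Gata3, the rarest transcript of the set, was at 2.56, 1.87 and 2.38 FPKM in scramble and 2.31, 2.98 and 1.82 FPKM in siEXOSC3, with a log2 difference of 0.04 (interval -0.30 to 0.37, adjusted p = 0.869). In siDDX1, Gata3 was at 1.33, 0.959 and 1.75 FPKM against 2.54, 1.86 and 2.36. All 3 siDDX1 libraries were below scramble, yet the log2 difference of -0.48 missed the threshold (SE 0.147, interval -0.82 to -0.14, adjusted p = 0.0722). Leaving out siDDX1 replicate 3 brought it to 0.00938, and leaving out any of the other libraries to between 0.0896 and 0.230. With a pseudocount of 0.1 the log2 difference was -0.73 (adjusted p = 0.0771). The gene 4930412O13Rik overlaps Gata3 on the opposite strand. It was at 0.672 ± 0.156 FPKM in scramble and 0.338 ± 0.169 in siDDX1, and at 0.678 ± 0.159 and 1.19 ± 0.151 FPKM in the siEXOSC3 table, under the filter for a test.

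**Figure D3:**
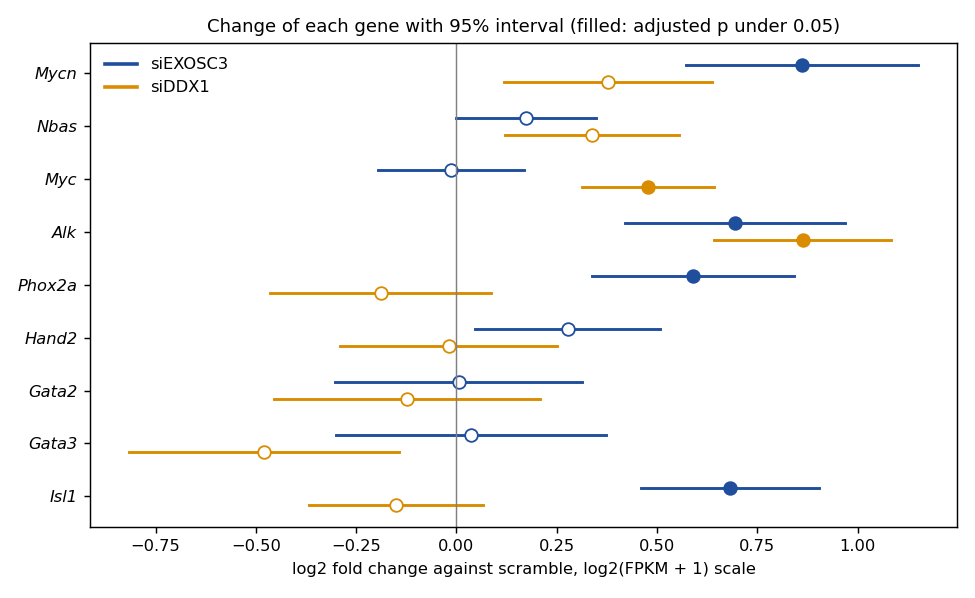
Log2 fold change of each gene against scramble (horizontal axis, log2(FPKM + 1) scale) with its 95% interval, in siEXOSC3 and siDDX1 (n = 3 per group). Filled points passed an adjusted p of 0.05: Mycn, Alk, Phox2a and Isl1 in siEXOSC3, from 0.59 to 0.86, and Myc and Alk in siDDX1, at 0.48 and 0.86.

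The libraries within a knockdown did not move together for all 9 genes. In siEXOSC3, replicate 2 was the highest of the 3 for 6 genes (Myc, Phox2a, Hand2, Gata2, Gata3 and Isl1), whereas replicate 3 was the highest for Mycn and Alk and the lowest for 5 of the genes. In siDDX1, replicate 3 was the highest for the same 6 genes and the lowest for Nbas and Alk. Among the scramble libraries, replicate 3 was the highest for 5 genes (Mycn, Myc, Phox2a, Hand2 and Gata2), with no target depleted. Of the knockdown libraries, replicate 2 of siEXOSC3 and replicate 3 of siDDX1 held the most of the transcript that their siRNA targets, and the part of the remaining target in these patterns was not tested. The difference in median deviation between the most GC-rich and the most GC-poor quartile of genes was 0.051 to 0.218 (log2) in the knockdown libraries and -0.062 to 0.08 in scramble. The part of GC content in these patterns was not tested.

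Across the 6 libraries of each table, the pattern of Mycn was most like that of Glt8d1, a glycosyltransferase gene, Gsdmd, the effector of pyroptosis, and Usp28, a deubiquitinase. The smaller of their Pearson r over the tables was 0.967, 0.963 and 0.960 among 11053 genes. The 6 libraries hold 2 conditions, with scramble in both tables, so the coefficient is a description. They were chosen for this likeness, so their levels are given with no test. Glt8d1 was at 11.5 ± 0.353 FPKM in scramble and 14.3 ± 0.334 in siEXOSC3, Gsdmd at 4.07 ± 0.123 and 6.49 ± 0.917 FPKM, and Usp28 at 9.15 ± 0.285 and 10.8 ± 0.926 FPKM. The siDDX1 levels were 13.0 ± 0.879 FPKM for Glt8d1, 4.41 ± 0.117 for Gsdmd and 9.87 ± 0.332 for Usp28. Within the set, Alk ranked 250th in likeness to Mycn (smaller r 0.822) and Nbas 773rd (0.718).

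Paralogs of the 9 genes were examined next, with a list of MYC partners, antagonists and related factors. Both lists were chosen by name. Of the paralogs, 4 were tested in siEXOSC3 and 5 in siDDX1, and 1 rose in each (16.7% and 5.61% of all genes): Ltk, the receptor kinase most related to Alk. Ltk went from 1.31 ± 0.117 to 3.02 ± 0.921 FPKM in siEXOSC3 (log2 fold change 0.78, adjusted p = 0.01) and from 1.29 ± 0.119 to 2.46 ± 0.525 FPKM in siDDX1 (0.58, adjusted p = 0.0301). Of 10 tested partners, antagonists and related factors of MYC, 2 rose and 1 fell in siEXOSC3 (16.7% and 15.7% of all genes) and none was called in siDDX1. Mxi1, an antagonist that competes for MAX, rose from 9.40 ± 0.858 to 15.1 ± 2.86 FPKM (adjusted p = 0.00942). Mlx, a related factor, rose from 19.0 ± 0.715 to 22.1 ± 0.719 FPKM (adjusted p = 0.0420). Zbtb17, the partner MIZ1 through which MYC represses genes, fell from 8.41 ± 0.0544 to 6.64 ± 0.869 FPKM (adjusted p = 0.0371). Max, the obligate partner of MYC and MYCN and the most abundant of the list, was at 44.5 ± 2.93 FPKM in scramble and 38 ± 3.0 in siEXOSC3, where all 3 libraries were below scramble and the log2 difference of -0.23 missed the threshold (interval -0.41 to -0.04, adjusted p = 0.0626). In the siDDX1 table Max was at 44.1 ± 2.84 FPKM in scramble and 44.3 ± 3.14 in siDDX1 (adjusted p = 0.966). Of these calls, that of Ltk in siDDX1 was lost without any 1 scramble library or siDDX1 replicate 1 or 2 (adjusted p = 0.0791 to 0.118). The call of Mlx was lost without any 1 library but siEXOSC3 replicate 2 (0.074 to 0.133), and that of Zbtb17 without any but siEXOSC3 replicate 3 (0.0599 to 0.126).

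Of 10 tested genes that bear on the stability of the MYC proteins, 3 fell in siEXOSC3, beside 15.7% of all genes. In siDDX1, 2 fell and 1 rose, beside 5.03% and 5.61% of all genes. Aurka, the mitotic kinase that shields MYCN from degradation, fell from 49.4 ± 2.17 to 26.4 ± 4.98 FPKM in siEXOSC3 (log2 fold change -0.90, adjusted p = 0.00242) and from 48.9 ± 2.22 to 38.9 ± 0.776 FPKM in siDDX1 (-0.32, adjusted p = 0.0152). Plk1, another mitotic kinase, fell by 0.66 on the log2 scale in siEXOSC3 (adjusted p = 0.00742). Skp2, a ubiquitin ligase subunit, was called lower in both (-0.48, adjusted p = 0.0245, and -0.52, adjusted p = 0.0280). Gsk3b, the kinase that marks MYC for degradation, rose in siDDX1 from 48.8 ± 2.52 to 59.3 ± 0.861 FPKM (adjusted p = 0.0259). The Aurka call in siDDX1 was lost without scramble replicate 1 or 3 or siDDX1 replicate 2 (adjusted p = 0.0571 to 0.0856), and those of Skp2 and Gsk3b in siDDX1 without any 1 library but siDDX1 replicate 3 (0.0511 to 0.117). In siEXOSC3 the Skp2 call was lost without scramble replicate 1 or 3 or siEXOSC3 replicate 1 (0.0844 to 0.0894).

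Of 24 tested target genes of MYC and MYCN, 7 fell and 1 rose in siEXOSC3, beside the 15.7% and 16.7% of all genes, and their median log2 fold change was -0.161. In siDDX1, 1 rose and 1 fell, beside 5.61% and 5.03% of all genes, with a median of 0.056. In siEXOSC3 Ldha, the lactate dehydrogenase of glycolysis, rose from 863 ± 109 to 1284 ± 103 FPKM (adjusted p = 0.00695). Cad, the entry enzyme of pyrimidine synthesis, fell from 26.3 ± 2.06 to 18.9 ± 2.38 FPKM (adjusted p = 0.0115), and Nolc1, a nucleolar chaperone, fell from 78.8 ± 1.6 to 61.1 ± 11.4 FPKM (adjusted p = 0.0420). In siDDX1 Tfrc, the transferrin receptor, fell from 61.3 ± 5.91 to 40.8 ± 4.06 FPKM (adjusted p = 0.0114) and Mybbp1a, a nucleolar protein, rose from 142 ± 1.25 to 174 ± 15.9 FPKM (adjusted p = 0.0458). Leaving out scramble replicate 3 ended the call of Cad (adjusted p = 0.0527), and leaving out scramble replicate 1 or 3 that of Tfrc (0.0659 and 0.059). The Nolc1 call was lost without any 1 scramble library or siEXOSC3 replicate 1 (0.0917 to 0.119), and that of Mybbp1a without any 1 library but siDDX1 replicate 3 (0.111 to 0.147).

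Of 13 other factors of the adrenergic circuit tested, 3 rose and 3 fell in siEXOSC3 (median log2 fold change 0.135), shares near the 16.7% and 15.7% of all genes. In siDDX1, 1 rose (median -0.01), beside 5.61% of all genes. Klf13 was listed at 0 in both tables, which in FPKM can be a failed estimate and does not show that it was absent. Lmo1, a LIM-only factor that is a neuroblastoma susceptibility gene in humans, rose in both, from 44.1 ± 1.58 to 67.0 ± 5.14 FPKM in siEXOSC3 (adjusted p = 0.00164) and from 43.7 ± 1.58 to 54.5 ± 1.26 in siDDX1 (adjusted p = 0.0149). The related Lmo4 fell in siEXOSC3 from 76.8 ± 5.15 to 48.7 ± 18.1 FPKM (adjusted p = 0.0392), while Klf7 rose from 20.4 ± 1.70 to 27.6 ± 1.38 FPKM (adjusted p = 0.00695). Among 7 tested cofactors of LIM, GATA and bHLH factors, 2 rose and 1 fell in siEXOSC3 and 1 rose and 1 fell in siDDX1, where 5.03% of all genes were decreased. Rlim, the ubiquitin ligase that marks LIM-domain cofactors for degradation, fell by 0.83 on the log2 scale in siEXOSC3 (adjusted p = 0.000522) and by 0.33 in siDDX1 (adjusted p = 0.0349). Ssbp2, which stabilizes the cofactor LDB1, rose by a log2 fold change of 0.38 (adjusted p = 0.00537) and 0.29 (adjusted p = 0.0488), and the related Ssbp4 rose in siEXOSC3 (0.45, adjusted p = 0.0400). In siDDX1 the Lmo1 call was lost without scramble replicate 1 or 3 or siDDX1 replicate 2 (adjusted p = 0.0633 to 0.0863), the Rlim call without any 1 library but siDDX1 replicate 3 (0.0857 to 0.146), and the Ssbp2 call without any 1 scramble library or siDDX1 replicate 2 (0.134 to 0.149). In siEXOSC3 the Lmo4 call was lost without any 1 scramble library or siEXOSC3 replicate 1 (0.076 to 0.119), and the Ssbp4 call without scramble replicate 1 or 2 or siEXOSC3 replicate 1 or 3 (0.0791 to 0.131).

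Neuroblastoma cells can also take up a mesenchymal state marked by another set of factors. Of 7 such genes tested, 2 rose and 1 fell in siEXOSC3 (16.7% and 15.7% of all genes) and 1 rose in siDDX1 (5.61%), while Twist1 was listed at 0 in both tables. Id1, an inhibitor of bHLH factors, rose in siEXOSC3 from 82.5 ± 6.75 to 109 ± 4.47 FPKM (adjusted p = 0.00750). Vim, which encodes the filament protein vimentin, rose from 490 ± 11 to 607 ± 49.2 FPKM (adjusted p = 0.0205), and the receptor gene Notch2 fell from 5.15 ± 0.325 to 3.86 ± 0.457 FPKM (adjusted p = 0.0306). In siDDX1, Fn1, which encodes the matrix protein fibronectin, rose from 82.3 ± 3.69 to 140 ± 7.46 FPKM (adjusted p = 0.00308). Vim, the most abundant of the list, lay wholly below scramble in siDDX1 (486 ± 9.95 against 428 ± 12.8 FPKM). Its log2 difference of -0.18 missed the threshold (interval -0.34 to -0.03, adjusted p = 0.108). Those of Id1 and Notch2 in siDDX1 were -0.13 and 0.09, and the median of the list was -0.03. The calls of Vim and Notch2 were lost without any 1 scramble library or siEXOSC3 replicate 1 (adjusted p = 0.0507 to 0.105).

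Around Alk, 6 ligands and signalling partners were tested, of which 2 rose and 1 fell in siEXOSC3 (16.7% and 15.7% of all genes) and 1 rose and 1 fell in siDDX1 (5.61% and 5.03%). Ret, another receptor tyrosine kinase of sympathetic neurons, rose in both, from 64.4 ± 2.86 to 111 ± 11 FPKM in siEXOSC3 (log2 fold change 0.77, adjusted p = 0.000988) and from 63.8 ± 2.68 to 81.1 ± 2.96 FPKM in siDDX1 (0.34, adjusted p = 0.0135). In siEXOSC3 the adaptor Shc3 rose from 1.02 ± 0.267 to 2.89 ± 1.31 FPKM (adjusted p = 0.0163) and the adaptor Frs2 fell from 21.7 ± 0.278 to 17.4 ± 1.11 FPKM (adjusted p = 0.0140). In siDDX1 Ptn, which encodes the growth factor pleiotrophin, fell from 39.5 ± 2.97 to 27.1 ± 5.54 FPKM (adjusted p = 0.0391). The Ret call in siDDX1 was lost without any 1 scramble library or siDDX1 replicate 2 (adjusted p = 0.0501 to 0.0787), that of Ptn without any 1 library but siDDX1 replicate 3 (0.0795 to 0.141), that of Shc3 without scramble replicate 1 or 3 (0.0666 and 0.0518), and that of Frs2 without any 1 scramble library or siEXOSC3 replicate 1 (0.0501 to 0.0549).

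Genes of catecholamine synthesis, storage and chromaffin granules, the differentiated products of the sympathetic lineage, included 5 that rose and 0 that fell among 7 tested in siEXOSC3, with a median log2 fold change of 0.693, beside 16.7% of all genes increased and 15.7% decreased. In siDDX1, 1 of 7 rose, with a median of 0.169, beside 5.61% of all genes increased. Chgb, which encodes the granule protein chromogranin B, was at 114, 129 and 116 FPKM in scramble and 329, 317 and 430 FPKM in siEXOSC3. The groups did not overlap, and Chgb rose by a log2 fold change of 1.56 (SE 0.117, adjusted p = 0.000336). Slc18a2, the vesicular monoamine transporter, rose from 5.93 ± 0.698 to 12.6 ± 2.36 FPKM (adjusted p = 0.00263), and Dbh, the enzyme that makes noradrenaline, from 4.53 ± 0.628 to 9.14 ± 0.832 FPKM (adjusted p = 0.00164). In siDDX1 Chgb rose from 119 ± 8.36 to 146 ± 9.52 FPKM (log2 fold change 0.30, adjusted p = 0.0440), a call lost without any 1 library but siDDX1 replicate 3 (adjusted p = 0.0560 to 0.170). The others in siDDX1 were not called and went both ways. Chga, which encodes chromogranin A, lay wholly below scramble (86.5 FPKM in scramble against 74.9 in siDDX1, log2 difference -0.20, interval -0.36 to -0.05, adjusted p = 0.0850). The log2 differences of the synthesis enzymes Ddc and Dbh were -0.36 and -0.09. Those of Slc18a2 and Gch1 were 0.17 and 0.19, and that of Cyb561 was above the list median of 0.169. Th was under the filter, at 0.143 to 0.223 FPKM in scramble and 0.749 to 1.90 FPKM in siEXOSC3, and at 0.142 to 0.221 against 0.393 to 0.648 FPKM in the siDDX1 table, above scramble in both. Pnmt and Slc6a2 were listed at 0 in every library.

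**Figure D4:**
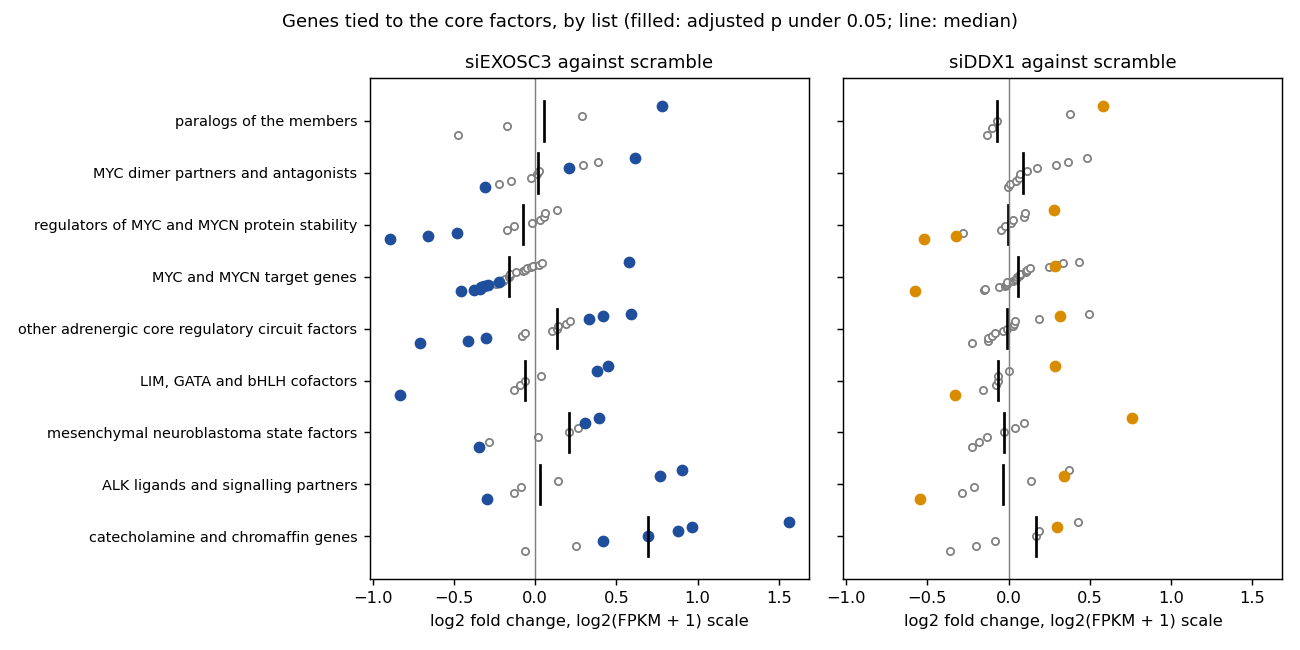
Log2 fold change (log2(FPKM + 1) scale) of each tested gene of 9 lists around the core factors, in siEXOSC3 (left) and siDDX1 (right), n = 3 per group. Filled points passed an adjusted p of 0.05 and the vertical line is the median of the list. The catecholamine and chromaffin genes have the rightmost median in siEXOSC3 (0.693), and the MYC and MYCN targets the leftmost (-0.161).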

How the data were processed

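RNA-seq libraries of N2A cells after scramble, EXOSC3 or DDX1 siRNA (3 each) were compared. The authors aligned reads with TopHat2 version 2.1.0 to mm9, used SAMtools and Cuffdiff version 2.2.1, and deposited FPKM of 24318 genes in 2 tables, each holding 1 knockdown and scramble; annotation and library normalization are not given in the sources used here. FPKM hold no read counts, so depth and counting error are unknown. The paper describes separate plates as biological replicates.

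Log2(FPKM + 1) was tested, for genes whose FPKM averaged 1 or more over 6 libraries, within each table with limma version 3.58.1 (lmFit, eBayes with intensity trend) in R version 4.3.3. P-values were two-sided, Benjamini-Hochberg adjusted over all genes, threshold 0.05. The fit was tested on simulated data.

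The 9 genes, the lists and the naming rule were chosen with earlier results of these data known. The rule named the 9 genes, both siRNA targets, the expressed genes within 1 Mb of Mycn, the 3 genes most like Mycn, and up to 3 called genes of largest change per list and knockdown. Where a list had no call in a knockdown, the rule named its most abundant gene, such as Max. The overlapping genes Inppl1 and 4930412O13Rik, and Mycl, Insm1, Th, Cdh5, Chga, Ddc, Gch1 and Cyb561, were named after their values were seen. Positions came from GENCODE vM1 on NCBIM37 (mm9) and promoters from RefSeq (GRCm38.p6), which were not mixed. Alternatives were a pseudocount of 0.1, no filter or a minimum mean of 5, quantile normalization, median centring, no intensity trend, a replicate block, an adjusted p under 0.01, leaving out each library, and, chosen after seeing the data, removal of the trend with GC content and transcript length (loess, span 0.3). Figures were drawn with matplotlib version 3.10.9. Some items are not reported here.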

Additional observations from a re-analysis of the deposited data

Results flagged for a closer look

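The Isl1 values lay on opposite sides of scramble in the 2 knockdowns. All 3 siEXOSC3 libraries were above all 3 scramble libraries (log2 fold change 0.68) and all 3 siDDX1 libraries below them (-0.15, adjusted p = 0.313). Without siDDX1 replicate 1 the latter was -0.07, and 17.8% of all genes tested lay wholly below scramble in siDDX1. The difference between the knockdowns was not tested, since they share the scramble libraries and their tables were scaled separately.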

How the results depend on the processing

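The increases of Mycn, Alk, Phox2a and Isl1 in siEXOSC3 and of Alk in siDDX1 passed the threshold of 0.05 in every alternative run, leaving out each library included. Some sizes were smaller with the GC and length trends removed. In siEXOSC3, Mycn went from 0.86 to 0.79, Alk from 0.69 to 0.59 and Phox2a from 0.59 to 0.48, whereas Isl1 went from 0.68 to 0.70. In siDDX1, Alk went from 0.86 to 0.81 and Myc from 0.48 to 0.44. The number of the 9 genes called was 4 or 5 throughout in siEXOSC3, and 1 to 5 in siDDX1 on leaving out 1 library, against 2 with all. Over all genes, 1607 to 4886 were called in siEXOSC3 on leaving out 1 library and 163 to 3527 in siDDX1. The lowest counts were without scramble replicate 1 in siEXOSC3 and scramble replicate 3 in siDDX1, and the highest without siEXOSC3 replicate 2 and siDDX1 replicate 3. At an adjusted p under 0.01 the counts were 1349 and 183, and with no filter 717 in siDDX1; the causes of the other shifts were not tested. With the replicate number as a replicate block, 4 of the 9 genes were called in siDDX1 (Myc, Alk, Nbas, Gata3) among 1893 genes, and the same 4 as without it in siEXOSC3. In their deviations from the group mean, samples of the same number correlated at -0.0121, 0.379 and 0.372 in siDDX1 (replicates 1 to 3). In siEXOSC3 the values were 0.0346, -0.31 and -0.126. Whether the numbers pair the samples was not tested. Differences near 0 changed sign: Myc in siEXOSC3 with median centring (0.0098) or without 1 library (-0.0821 to 0.0523), Gata2 with the GC trend removed (-0.0693) or without 1 library (-0.1185 to 0.1099), Gata3 with quantile normalization (-0.1225) or without 1 library (-0.091 to 0.1563), Ddx1 with quantile normalization (-0.0058) or without 1 library (-0.0454 to 0.0397), and Hand2 in siDDX1 with median centring (0.0059) or without 1 library (-0.1581 to 0.0602). The siDDX1 difference in Mycn share ranged from -0.3528 to 0.2287 points without 1 library. In siDDX1 Nbas passed with median centring, the block or the GC trend removed (adjusted p = 0.0494, 0.0321 and 0.0456), and in siEXOSC3 Hand2 passed with median centring (0.0484) and was at 0.1622 (adjusted p = 0.221) with the GC and length trends removed. With a pseudocount of 0.1, Gata3 in siDDX1 moved from -0.4792 to -0.7279. Apart from leaving out libraries and the stricter threshold, calls of list genes were also lost: in siEXOSC3, Zbtb17, Nolc1 and Lmo4 passed in 5 of 8 alternatives, Notch2 in 5 of 7, Mlx, Skp2 and Ssbp4 in 6 of 8 and Vim in 7 of 8; in siDDX1, Chgb passed in 4 of 8, Mybbp1a in 5 of 8, Ssbp2 and Ptn in 6 of 8, Ltk in 6 of 7, and Skp2, Lmo1 and Rlim in 7 of 8.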
